A study of Mus musculus with 12 samples.

Results

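The excitatory amino acid transporters (EAATs) are the 5 plasma membrane carriers that clear glutamate from the extracellular space: EAAT1 (Slc1a3), EAAT2 (Slc1a2), EAAT3 (Slc1a1), EAAT4 (Slc1a6) and EAAT5 (Slc1a7). Their 5 genes were chosen by name from the 50600 gene entries of a bulk RNA-seq table, as the targets of the inhibitor used in this experiment, and all 5 were present. The comparisons ask whether the RNA of these genes differed when transport was blocked, when glutamate was added, or both.

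EAATs are secondary active carriers. They bring in glutamate together with sodium ions and a proton and send out potassium, so they depend on the ion gradients across the membrane. In the adult brain EAAT1 and EAAT2 are mainly glial, EAAT3 is mainly neuronal, EAAT4 is known from cerebellar Purkinje cells and EAAT5 from the retina. EAAT1 is also a classic marker of radial glia-like neural stem cells (NSCs).

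The 12 libraries came from wild type C57Bl6J mouse NSCs, cultured from the adult dentate gyrus (DG) and kept in medium with epidermal and basic fibroblast growth factor at 20 ng/ml each. At passage 4, 75000 cells per well were given 1 µM TFB-TBOA, a blocker of the EAATs, or vehicle for 15 min, and then 100 µM glutamate or vehicle. RNA was taken after 48 h. The 4 groups were TFBTBOA-Glut (inhibitor, then glutamate), TFBTBOA-Veh (inhibitor alone), Veh-Glut (glutamate alone) and Veh-Veh (neither), with 3 wells each. NSC lines of this laboratory came from 6-week-old mice, from DG pooled over animals of a single sex, and which line was sequenced is not given in the sources used here. Wells of a culture may be technical replicates, so the p-values measure only the spread between wells.

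Values are normalized counts, that is, reads per gene divided by a size factor for each library. They summed to between 14900486 and 15411418 per library. The NSC marker list summed to 70861 to 89093 normalized counts (9 of 10 above 0 in all 12 libraries), mainly Nes (27276.5), Fabp7 (25201) and Vim (23136). Sox9 averaged 4581 and Sox2 189, and the lowest of the list were Msi1 (31.1), Hes5 (19.7) and Prom1 (7.76). The summed microglial (11.8 to 51.6), endothelial (0 to 50.5) and fibroblast and mural (4.24 to 21.1) markers were low. Neuron markers summed to 10667 to 13249, largely Map2, and the defining marker of newborn neurons, Dcx, averaged 5.15. The oligodendrocyte lineage list summed to 44287 to 54869, mainly Olig1, with Cspg4 at 1733 and Olig2 at 1451.5, and with Sox10 at 0.865 and Mog at 1.17. The astrocyte list summed to 13268 to 14646, most of it Aldoc (6084), Aldh1l1 (3267) and Gja1 (3033), with Gjb6 at 0 and Aqp4 at 1.74. A gene was called where its p, adjusted over all genes tested, was under 0.05, and log2 fold changes are on the log2(normalized count + 1) scale. Of 28 markers tested, 2 were called in limma for TFB-TBOA averaged over glutamate, a comparison that called 7.52% of all genes: Vim (log2 fold change 0.25, adjusted p = 0.0388) and S100b (-0.88, adjusted p = 0.00354). In bulk libraries fewer cells of a type and less RNA per cell cannot be told apart.

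The promoters of the most abundant member, Slc1a3, and of the member that rose with the inhibitor, Slc1a1, are printed to show the sequence before the RefSeq start of each. Both are the 250 bases before the RefSeq transcription start in GRCm38.p6, 5′ to 3′ on the strand of the gene. The Slc1a3 window is chr15:8710808-8711057 on the minus strand, and the Slc1a1 window is chr19:28834885-28835134 on the plus strand. The GENCODE start of Slc1a1 lies upstream of the RefSeq start, so the last 86 bases of its window are inside the gene as GENCODE gives it. Capitals mark matches to a GC box (GGGCGG) or a CCAAT box (CCAAT) on either strand.
Slc1a3: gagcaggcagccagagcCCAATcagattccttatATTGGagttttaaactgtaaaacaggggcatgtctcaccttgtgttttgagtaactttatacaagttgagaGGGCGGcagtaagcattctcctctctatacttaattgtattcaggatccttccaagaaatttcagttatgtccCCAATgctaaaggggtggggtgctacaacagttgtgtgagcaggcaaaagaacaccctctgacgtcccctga
Slc1a1: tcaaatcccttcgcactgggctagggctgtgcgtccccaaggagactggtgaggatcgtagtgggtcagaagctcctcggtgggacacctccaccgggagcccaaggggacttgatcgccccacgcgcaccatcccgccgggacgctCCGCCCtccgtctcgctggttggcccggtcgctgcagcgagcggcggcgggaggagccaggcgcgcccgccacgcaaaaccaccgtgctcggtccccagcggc
The Slc1a3 window held 1 GC box, starting 145 bases before the start site, and 3 CCAAT matches, at 233, 216 and 72 bases before it. The Slc1a1 window held 1 GC box, on the other strand 103 bases before the start site, and no CCAAT. These letters are common: a GC box match was present in 32.7% and a CCAAT match in 33.8% of 32851 promoter windows of this length. Neither window held the cyclic AMP response element TGACGTCA, found in 1.55% of the windows, or the antioxidant element TGACNNNGC, found in 10.2%. The motifs do not overlap each other in either window, and a match describes letters only.

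EAAT1 RNA dominated the family. Slc1a3 averaged 3630 normalized counts per kilobase of exon over the 12 libraries (range 3357 to 3893). In Veh-Veh it ranked 20 of 50417 symbols by normalized count, not corrected for length, and 149 of 21445 protein-coding genes per kilobase of exon. On the same per-length scale Slc1a2 averaged 23.3 (16.4 to 31.1), Slc1a6 17 (6.08 to 25.0) and Slc1a1 7.79 (4.46 to 13.3). Slc1a3 made up 98.4 to 99.1% of the summed per-kilobase level of the 5 genes in each library. Slc1a7 was at 0 in nearly every library.

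The order below EAAT1 depended on the length used and, with the longest transcript, on the group. With exon length, Slc1a2 and Slc1a6 did not overlap in Veh-Veh but overlapped in the other 3 groups. With the longest coding length, Slc1a1 (41.0 normalized counts per kilobase) stood above Slc1a6 (21.8) on average, though they overlapped in Veh-Glut and Veh-Veh. With the longest transcript the means over all libraries were 16.9 for Slc1a1 and 18 for Slc1a6, but the order differed by group. Slc1a6 was above Slc1a1 in Veh-Veh (18.6 against 10.8, no overlap) and in Veh-Glut (15.0 against 12.1, overlapping). Slc1a1 was above Slc1a6 in TFBTBOA-Veh (20.8 against 16.6) and TFBTBOA-Glut (24.0 against 21.9), with overlap in both. Slc1a3 was first and Slc1a7 last in every group with all 3 lengths. Of the remaining Slc1 genes, which carry neutral amino acids and are not EAATs, Slc1a4 (ASCT1) averaged 453 and Slc1a5 (ASCT2) 167 normalized counts per kilobase of exon, between EAAT1 and EAAT2.

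**Figure D1:**
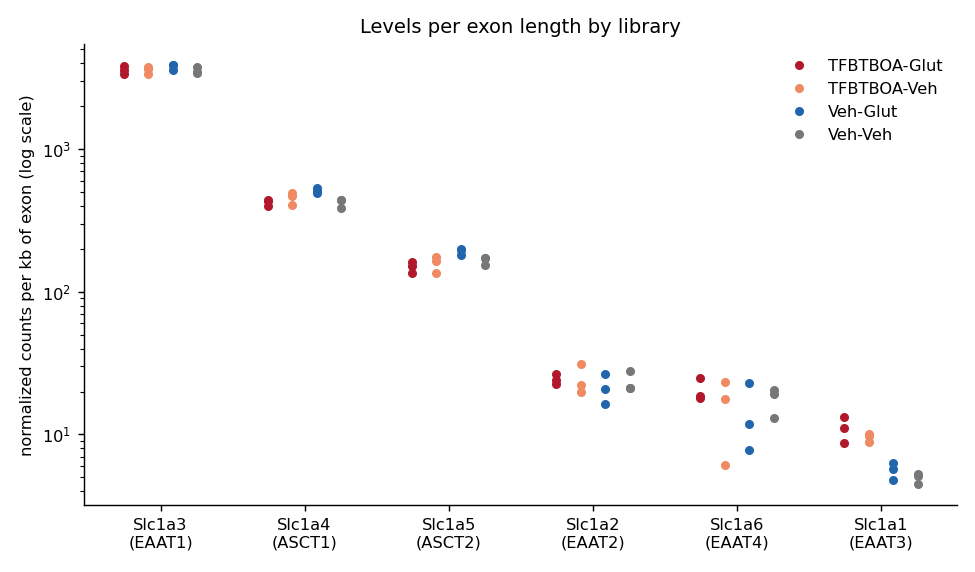
Normalized counts per kilobase of exon (vertical log axis) for 6 Slc1 genes, one point per library, coloured by group. Slc1a3 lies between 3357 and 3893 in all 12 libraries, Slc1a2 between 16.4 and 31.1 and Slc1a1 between 4.46 and 13.3. Slc1a7, at 0 in 11 libraries, is not drawn on the log axis.

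EAAT3 RNA rose with the inhibitor. Slc1a1 (chr19:28835049-28913960, plus strand, GRCm38) had 91.5, 110.1 and 72.0 normalized counts in TFBTBOA-Glut and 80.9, 72.9 and 83.5 in TFBTBOA-Veh, against 39.3, 51.7 and 47.3 in Veh-Glut and 43.5, 42.4 and 36.8 in Veh-Veh. Every library with the inhibitor was above every library without it. The level averaged 85.1 ± 14.2 with TFB-TBOA and 43.5 ± 5.37 without it (SD, n = 6 each), which is 1.96-fold.

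With the 2 inhibitor comparisons averaged over glutamate in a fit of all 12 libraries, Slc1a1 rose by 0.95 on the log2 scale (SE 0.177, 95% interval 0.57 to 1.32, limma adjusted p = 0.00382). It was the single member called of the 4 that could be tested, where 7.52% of the 14266 genes tested were called, 4.12% higher and 3.4% lower. Non-overlap of the 6 inhibitor and 6 other libraries was seen in 4.28% of genes. Slc1a1 ranked 276 by p among the genes tested. An exact permutation of the inhibitor labels within each glutamate condition gave p = 0.005, two-sided, the smallest value its 400 relabelings allow. Any gene with this full separation must reach that value, so it adds nothing to the non-overlap.

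Neither separate inhibitor comparison passed the threshold over all genes in 3 against 3 libraries. The inhibitor alone gave a log2 fold change of 0.93 (SE 0.266, unadjusted p = 0.00431, adjusted p = 0.158, limma) for TFBTBOA-Veh against Veh-Veh, where 1.03% of genes were called (0.925% higher, 0.105% lower) and 16.8% had non-overlapping groups, as Slc1a1 did. In the presence of glutamate it gave 0.96 (SE 0.281, unadjusted p = 0.00545, adjusted p = 0.101, limma) for TFBTBOA-Glut against Veh-Glut, where 2.18% were called (1.23% higher, 0.953% lower) and 23.2% did not overlap. With the spread estimated from all 12 libraries this comparison was called for Slc1a1 (adjusted p = 0.0385, limma). That single fit called more genes than the 2.18% above, and its count is given with the other alternatives in the last section. The averaged rise held without each library in turn, at 0.87 to 1.03 (adjusted p = 0.00376 to 0.0128, limma).

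Glutamate did not change Slc1a1 past the threshold. Veh-Glut against Veh-Veh gave 0.16 (SE 0.297, adjusted p = 0.889, limma), where 0.161% of genes were called (0.133% higher, 0.028% lower). TFBTBOA-Glut against TFBTBOA-Veh gave 0.18 (SE 0.254, adjusted p = 1.00, limma), in a comparison that called 0% of genes (0 by limma, with 537 at an unadjusted p under 0.05) and separated the groups of 8.96%. The difference between the 2 glutamate effects was 0.023 for Slc1a1 (adjusted p = 0.993, limma), with a 95% interval of -0.73 to 0.78. Averaged over the inhibitor, glutamate gave 0.17 (SE 0.177, adjusted p = 0.925, limma).

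None of the 4 testable EAAT genes was called for glutamate or for the difference between glutamate effects. Averaged over the inhibitor, where 0.00701% of genes were called, all of them higher, the glutamate effect was -0.068 for Slc1a2, 0.042 for Slc1a3 and 0.079 for Slc1a6. The difference between the 2 glutamate effects, for which 0.014% of genes were called, all of them lower, was 0.17 for Slc1a2, -0.097 for Slc1a3 and 0.97 for Slc1a6. The standard error of that last value was 0.676 (adjusted p = 0.759, limma), and it ran from 0.41 without TFBTBOA-Veh replicate 3 to 1.37 without Veh-Glut replicate 3.

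Because EAAT3 is mainly neuronal, the neuron markers were set beside its values. Their summed level was 11116 to 12638 normalized counts in TFBTBOA-Glut and 11060 to 12069 in TFBTBOA-Veh, against 10764 to 13249 in Veh-Glut and 10667 to 12380 in Veh-Veh. This sum is almost all Map2, which averaged 11594 and had an averaged inhibitor effect of -0.052. The other 4 tested neuron markers had positive values: Syt1 0.91, Rbfox3 0.52, Tubb3 0.47 and Snap25 0.19. Syt1, a synaptic vesicle protein, averaged 55.5 normalized counts in TFBTBOA-Glut and 41.1 in TFBTBOA-Veh, against 35.9 in Veh-Glut and 17.6 in Veh-Veh (averaged effect SE 0.354, unadjusted p = 0.0206, adjusted p = 0.140, limma). None of the 5 was called in limma, where 7.52% of all genes were. Neurod1, Dcx and Stmn2 were below the minimum mean of 10 and were not tested. Neurod1 averaged 4.73 normalized counts in TFBTBOA-Glut and 2.07 in TFBTBOA-Veh, against 12.1 in Veh-Glut and 15.4 in Veh-Veh. Dcx averaged 4.48 and 3.99 with the inhibitor, against 6.48 and 5.66 in the same order. Stmn2 was at 0 in all groups but Veh-Veh (2.11).

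S100b was lower with the inhibitor in both settings, at -0.92 for TFBTBOA-Glut against Veh-Glut and -0.84 for TFBTBOA-Veh against Veh-Veh, neither called alone (adjusted p = 0.0719 and 0.152, limma). Vim gave 0.47 for TFBTBOA-Glut against Veh-Glut but 0.036 for TFBTBOA-Veh against Veh-Veh (adjusted p = 0.0519 and 0.875, limma). The part of these markers in the Slc1a1 result was not tested.

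**Figure D2:**
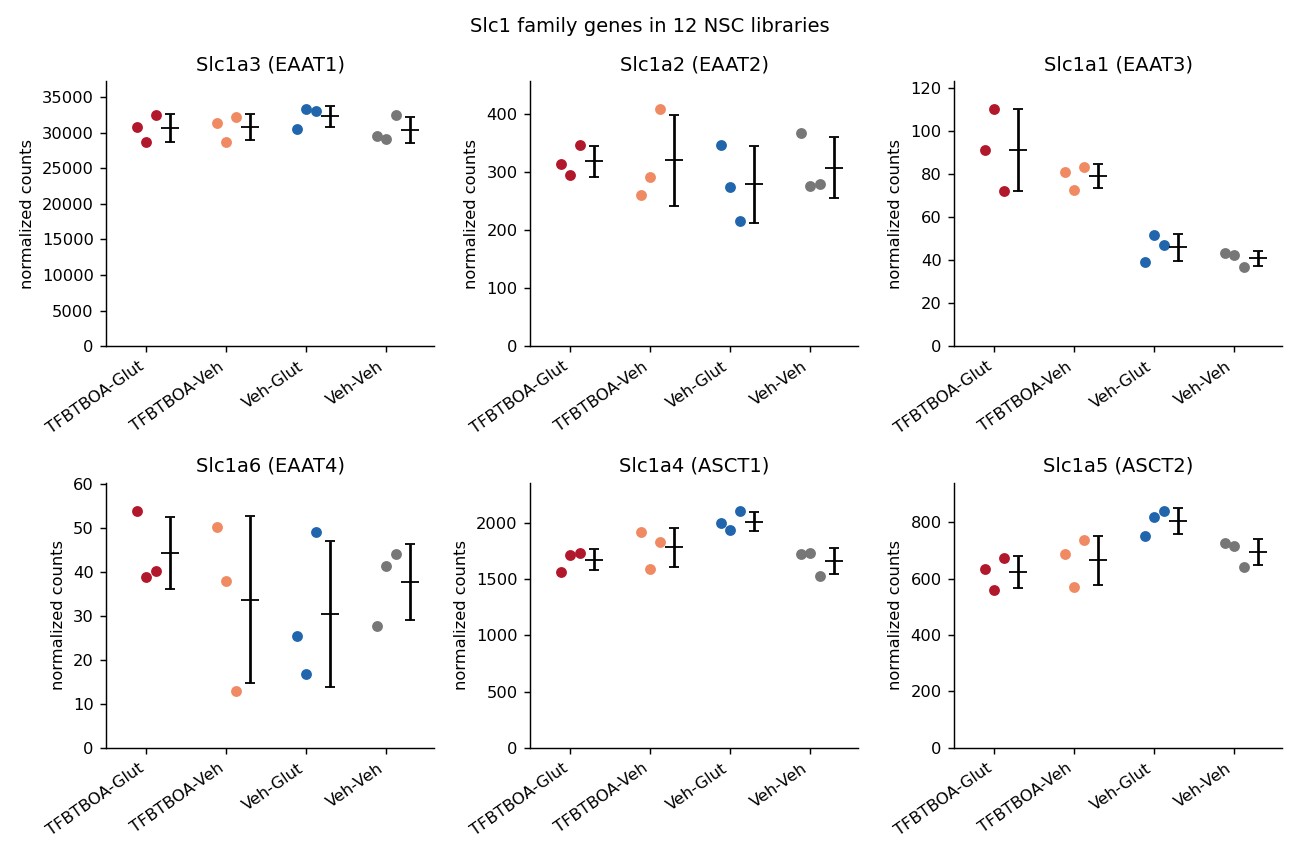
Normalized counts (vertical axes from 0) of 6 Slc1 genes, Slc1a7 left out, in the 12 libraries, one panel per gene and one column of 3 points per group, with the mean and SD beside them. In the Slc1a1 panel the TFBTBOA-Glut and TFBTBOA-Veh points lie at 72.0 to 110.1 and the Veh-Glut and Veh-Veh points at 36.8 to 51.7, whereas the groups overlap for Slc1a2, Slc1a3 and Slc1a6.

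A gene on the opposite strand shares exons with Slc1a1. This neighbour, 4430402I18Rik, had 22.9, 36.7 and 42.3 normalized counts in TFBTBOA-Glut, 37.2, 54.9 and 52.3 in TFBTBOA-Veh, 38.3, 46.4 and 55.6 in Veh-Glut, and 12.2, 39.2 and 46.3 in Veh-Veh. Its groups overlapped and its averaged inhibitor effect was 0.12 (SE 0.309, adjusted p = 0.871, limma). The library kit does not mark strand while reads were counted in stranded mode, so reads of the shared stretch cannot be assigned to one of these genes with certainty.

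**Figure D3:**
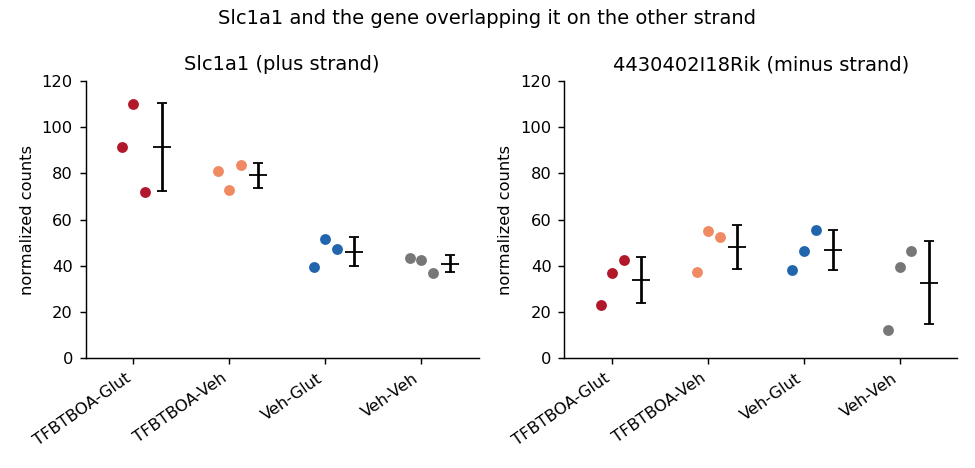
Normalized counts of Slc1a1 and of the overlapping 4430402I18Rik in the 12 libraries, both on an axis from 0 to 120, with the group mean and SD. Slc1a1 separates by inhibitor, at 72.0 to 110.1 with it and 36.8 to 51.7 without it, and 4430402I18Rik runs from 12.2 to 55.6 with the groups mixed.

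EAAT1 passed the threshold in no comparison. Slc1a3 (chr15:8634124-8710764, minus strand) had 30709, 28660 and 32484 normalized counts in TFBTBOA-Glut and 31292, 28712 and 32235 in TFBTBOA-Veh, against 30533, 33235 and 33061 in Veh-Glut and 29527, 29049 and 32395 in Veh-Veh. The groups overlapped throughout. TFB-TBOA averaged over glutamate gave -0.028 (SE 0.0437, 95% interval -0.12 to 0.06, adjusted p = 0.773, limma), and an exact permutation within glutamate conditions gave p = 0.535. Glutamate alone gave 0.09 (SE 0.0536, limma) for Veh-Glut against Veh-Veh. Its spread within groups was the narrowest of the 5, a coefficient of variation of 5.72%, at a depth where counting alone would give 0.567%.

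EAAT2 varied more between wells than between groups. Slc1a2 (chr2:102658659-102790784, plus strand) had 314, 295 and 347 normalized counts in TFBTBOA-Glut and 260.2, 292 and 408 in TFBTBOA-Veh, against 348, 274 and 216 in Veh-Glut and 368, 276 and 279 in Veh-Veh. The highest and the lowest library belonged to TFBTBOA-Veh and Veh-Glut, and each group overlapped the others. Gm13872, annotated antisense to Slc1a2, averaged 0.340 normalized counts. TFB-TBOA averaged over glutamate gave 0.13 (SE 0.141, 95% interval -0.17 to 0.43, adjusted p = 0.660, limma). The coefficient of variation within groups was 19.2%, against 5.76% from counting.

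The balance between the 2 glial transporters was therefore set against the inhibitor as a ratio within each library, which does not depend on scaling. Slc1a3 exceeded Slc1a2 by 121 to 236 times per kilobase of exon, with a median of 151. The size of this ratio depended on the length used. The ratio of group means was 148 to 178 with exon length, 251 to 302 with the longest transcript and 101 to 122 with the longest coding length. TFB-TBOA averaged over glutamate moved the log2 ratio by -0.16 (exact permutation within glutamate conditions, p = 0.37). That value ran from -0.26 without Veh-Glut replicate 1 to -0.063 without Veh-Glut replicate 3 (exact permutation p = 0.13 to 0.67 over the libraries left out). Glutamate alone moved it by 0.24 in Veh-Glut against Veh-Veh (exact permutation p = 0.4, where 3 against 3 cannot go below 0.1).

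EAAT4 was low and noisy. Slc1a6 (chr10:78780496-78814765, plus strand) had 53.9, 39.0 and 40.3 normalized counts in TFBTBOA-Glut and 50.3, 37.9 and 13.1 in TFBTBOA-Veh, against 25.5, 16.9 and 49.1 in Veh-Glut and 27.9, 41.4 and 44.2 in Veh-Veh. Single libraries stood far from their group, and no pair of groups separated. TFB-TBOA averaged over glutamate gave 0.16 (SE 0.338, 95% interval -0.56 to 0.88, adjusted p = 0.843, limma), an interval that spans changes in both directions. Its coefficient of variation within groups was 38.2%, against 17.6% from counting.

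EAAT5 was not detectable in 11 of 12 libraries. Slc1a7 (chr4:107968332-108013532, plus strand) was at 0 in those 11 and at 0.817 normalized counts, equal to 1 read, in TFBTBOA-Glut replicate 1. A count of 0 still allows up to 3 reads in a library. The gene was below the minimum mean of 10 and entered no fit across genes, and a single read allows no test of a difference.

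**Figure D4:**
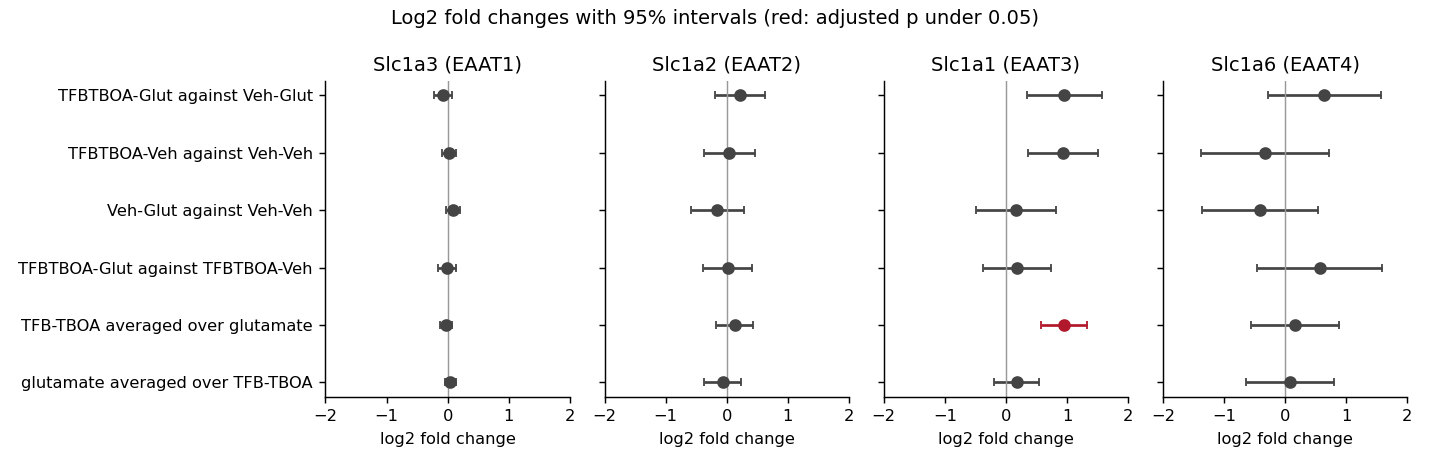
Log2 fold changes (horizontal axes) with 95% intervals for the 4 testable EAAT genes, one row per comparison, red where the adjusted p is under 0.05. The single red interval is Slc1a1 for TFB-TBOA averaged over glutamate, at 0.95 (0.57 to 1.32), while the intervals of Slc1a6 are the widest and those of Slc1a3 the narrowest.

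The 2 neutral amino acid carriers of the family followed another pattern without passing the threshold. Slc1a4 had 1565, 1711 and 1734 normalized counts in TFBTBOA-Glut and 1919.5, 1590.2 and 1831 in TFBTBOA-Veh, against 1995, 1931 and 2102 in Veh-Glut and 1720.4, 1733 and 1527 in Veh-Veh. All Veh-Glut libraries lay above all TFBTBOA-Glut and all Veh-Veh libraries. Veh-Glut against Veh-Veh gave 0.28 (SE 0.0861, adjusted p = 0.350, limma), in a comparison where 14.4% of genes had non-overlapping groups, and TFBTBOA-Glut against Veh-Glut gave -0.27 (adjusted p = 0.146, limma), where 23.2% did. The difference between the 2 glutamate effects was -0.37 (SE 0.127, adjusted p = 0.614, limma).

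Slc1a5 had 634, 561 and 672 normalized counts in TFBTBOA-Glut and 688, 569 and 735 in TFBTBOA-Veh, against 752, 819 and 839 in Veh-Glut and 724, 715 and 640.0 in Veh-Veh. All Veh-Glut libraries lay above the other 9, and the share of all genes with that separation was not counted. Between pairs of groups, in either direction, 14.4% of all genes did not overlap for Veh-Glut and Veh-Veh and 23.2% for TFBTBOA-Glut and Veh-Glut. The log2 fold change was 0.21 for Veh-Glut against Veh-Veh (adjusted p = 0.567, limma) and -0.37 for TFBTBOA-Glut against Veh-Glut (adjusted p = 0.130, limma).

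Genes that make, use or move glutamate and its relatives were examined next, as 27 tested of 31 listed. With TFB-TBOA averaged over glutamate 3 were called higher and 4 lower, where 4.12% and 3.4% of all genes were, and the median log2 fold change was 0.0036, against 0.0037 over all genes. Higher were Glul, the glutamine synthetase that consumes the glutamate taken up (0.46), Abat, which degrades GABA (0.34), and Slc38a2, a neutral amino acid carrier (0.29). Lower were Asns, asparagine synthetase (-0.47), Aldh18a1, which starts proline synthesis from glutamate (-0.44), Gpt2, mitochondrial alanine aminotransferase (-0.34), and Slc38a3, a glutamine carrier (-0.22).

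Glul averaged 1493 ± 71.9 normalized counts in TFBTBOA-Glut and 1461 ± 30.3 in TFBTBOA-Veh, against 1049.7 ± 34.3 in Veh-Glut and 1107 ± 87.5 in Veh-Veh (SD, n = 3 each). Like Slc1a1, it separated by inhibitor with no overlap of the 6 and 6 libraries, as did 4.28% of all genes. Asns instead was highest with glutamate alone: it averaged 4078 in TFBTBOA-Glut and 4470.5 in TFBTBOA-Veh, against 7620 in Veh-Glut and 4580.4 in Veh-Veh.

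In the separate comparisons, Veh-Glut against Veh-Veh called Asns (0.74) and Aldh18a1 (0.56) higher and none lower, where 0.161% of all genes were called. TFBTBOA-Glut against Veh-Glut, where 2.18% were, called Glul (0.51) and Slc38a2 (0.38) higher and Asns (-0.90), Aldh18a1 (-0.77), Gpt2 (-0.43) and Slc3a2 (-0.37), the heavy chain shared by several amino acid exchangers, lower. TFBTBOA-Veh against Veh-Veh, where 1.03% were, called Abat (0.56) higher and Gpt2 (-0.24) lower. TFBTBOA-Glut against TFBTBOA-Veh and the difference between the 2 glutamate effects called none of the 27 in limma. These comparisons share libraries, so their values are not independent.

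Of 16 partners and regulators of the transporters, all tested, the averaged inhibitor comparison called 2 higher and 1 lower, where 4.12% and 3.4% of all genes were. Arl6ip5, whose product (GTRAP3-18) binds EAAT3 and holds it back from the surface, had a log2 fold change of 0.29 (adjusted p = 0.0226, limma). Nedd4l, a ubiquitin ligase, had 0.34 (adjusted p = 0.0275, limma), and Egfr, the receptor of the epidermal growth factor in the medium, -0.17 (adjusted p = 0.0494, limma). Arl6ip5 averaged 725 in TFBTBOA-Glut and 778 in TFBTBOA-Veh, against 581 in Veh-Glut and 645 in Veh-Veh, in normalized counts. None of the 16 passed in a pairwise comparison in limma.

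**Figure D5:**
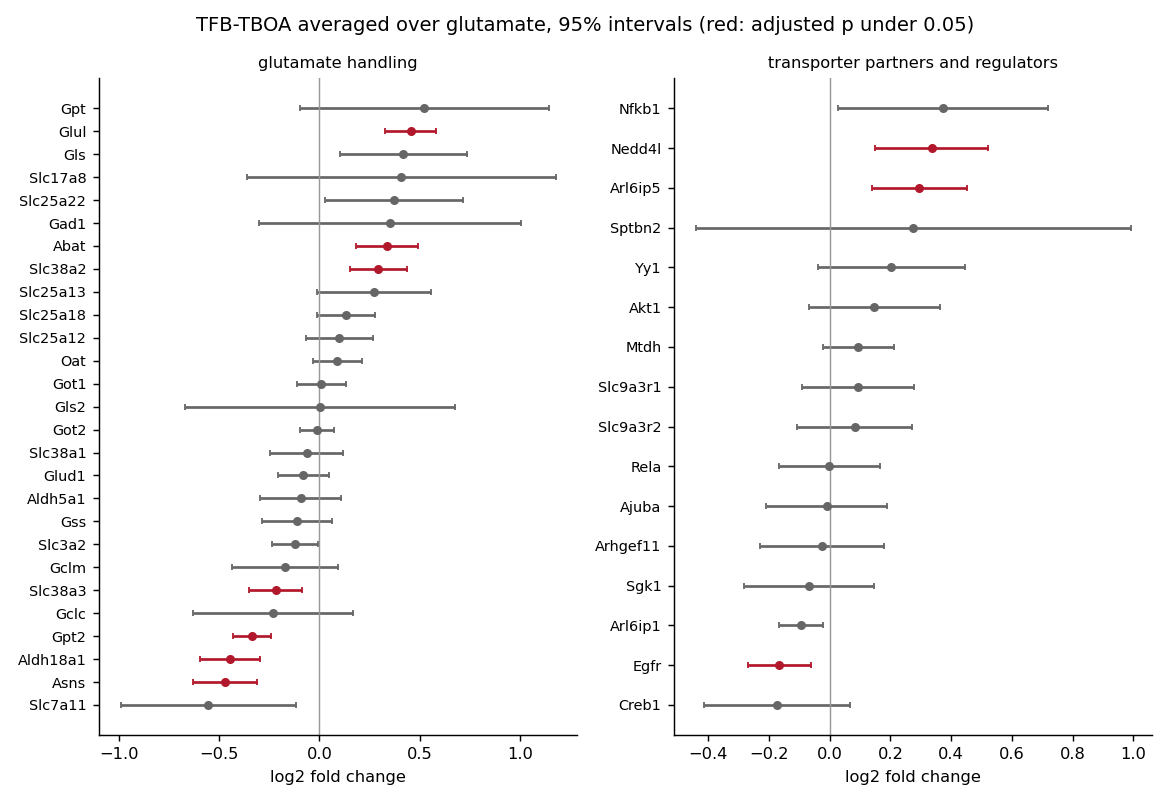
Log2 fold changes for TFB-TBOA averaged over glutamate (horizontal axes) with 95% intervals, one row per gene and one panel per list, red where the adjusted p is under 0.05. Red rows include Glul at 0.46 and Asns at -0.47 among genes of glutamate handling, and Arl6ip5 at 0.29 among partners and regulators.

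The genes whose pattern across the 12 libraries was most like that of each EAAT gene were found by Pearson's r on log2 values, among 11475 genes with a mean of at least 50 (11476 for Slc1a6). For Slc1a1 they were Armcx6 (0.96), Sptan1 (0.94), Smim14 (0.94), Dgkg (0.94) and Lynx1 (0.94), and 2 of these 5 were also in the top 5 by Spearman's rho. Armcx6 averaged 195 normalized counts with the inhibitor and 132 without it. For Slc1a3 they were Qrich1 (0.95), Gna13 (0.94), Cdc42se2 (0.93), Yipf6 (0.93) and Cyb5b (0.93), and 3 of these were in the top 5 by rho. For Slc1a2, Lurap1l led (0.83), with Camta1, Adcy9, Arfgap3 and Hspb6, and for Slc1a6, Arl16 (0.83), with Tapbpl, Slc22a15, Ankrd26 and RP23-438P19.11. Only 1 gene of each of these lists was in the top 5 by rho, Lurap1l for Slc1a2 and Tapbpl for Slc1a6. Arl16 had a rho of 0.56 with Slc1a6. Libraries of one group share a treatment, and each list is the top of many genes, so these values are a description. Among themselves the 4 EAAT genes ran from -0.57 (Slc1a2 with Slc1a6) to 0.17 (Slc1a1 with Slc1a2).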

How the data were processed

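Bulk RNA-seq was analysed for 12 libraries, mapped to 4 groups by the treatment label. The deposited file holds a normalized signal for each gene: the authors divided read counts by DESeq size factors. Per their methods, adapters were trimmed, ribosomal, mitochondrial and PhiX reads were removed, reads were aligned to mouse GRCm38 with HISAT2 and counted per GENCODE gene with featureCounts in stranded mode. The submitters' notes name CASAVA 1.8.2, HISAT2 2.0.6 and GRCh38, a human build. Gene coordinates and lengths are those of GENCODE for GRCm38, matched by symbol, and promoters are from RefSeq. The GENCODE release used for lengths is later than the one the authors counted with, so levels per kilobase combine 2 releases.

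From the deposited values, log2(normalized count + 1) was fitted by limma 3.58.1 under R 4.3.3 (two-sided, with a trended variance) for 14266 genes with a mean of at least 10. Adjusted p-values are Benjamini-Hochberg over all of them, threshold 0.05. Pairwise comparisons used their own 6 libraries. The averaged effects and the difference between glutamate effects used all 12. Fold changes are on the log2(value + 1) scale, which understates changes of low genes.

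Whole reads were recovered in 10 libraries (100% of values within 0.05 of a whole read), with totals of 13064545 to 18372691. Count tests on them (edgeR 4.0.16, DESeq2 1.42.0) were alternatives for the comparisons without TFBTBOA-Veh. On recovered reads edgeR called 23 genes for Veh-Glut against Veh-Veh and 297 for TFBTBOA-Glut against Veh-Glut. Counting intervals and floors cover counting error only. Other alternatives were pseudocounts of 0.5 and 5, no filter or a minimum mean of 50, TMM scaling, 1 fit of all libraries, a block for replicate number and each library left out. The scripts were tested on simulated data.

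The genes named are the EAAT genes, Slc1a4 and Slc1a5, list members past the threshold, and the 5 genes most like each member. Members and lists were chosen with earlier results of these data known. The overlapping gene and the promoter motifs were picked after values were seen. No other experiment of the study was analysed here. Results of a further gene list are not reported here.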

Additional observations from a re-analysis of the deposited data

How the results depend on the processing

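The rise of Slc1a1 with TFB-TBOA averaged over glutamate stayed past the threshold in limma under every alternative run, with adjusted p of 0.00312 to 0.0132 in settings that kept all libraries. The number of EAAT genes called for TFBTBOA-Glut against Veh-Glut was 0, and 1 (Slc1a1) with all 12 libraries in a single fit. For that gene and comparison DESeq2 gave an adjusted p of 0.0547 and edgeR 0.101. Libraries of the same replicate number were little correlated across groups: 18 such pairs had correlations of -0.043 to 0.084 over the genes tested, after group means were removed. Whether wells were handled in sets by replicate number is not settled by these values. With the replicate block Slc1a1 had an adjusted p of 0.00529, and calls over all genes were 325, against 147 without the block, for TFBTBOA-Veh against Veh-Veh, and 4, against 23, for Veh-Glut against Veh-Veh.

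Leaving out 1 library turned the sign of several uncalled effects, given as lowest and highest log2 fold change. These were Slc1a2 for Veh-Glut against Veh-Veh (-0.32 to 0.0181), TFBTBOA-Veh against Veh-Veh (-0.14 to 0.18) and TFBTBOA-Glut against TFBTBOA-Veh (-0.12 to 0.20), and Slc1a3 for the last 2 (-0.0150 to 0.0685 and -0.0547 to 0.0405). Slc1a6 ranged from -0.70 to 0.23 for TFBTBOA-Veh against Veh-Veh, -0.0288 to 0.44 for the averaged inhibitor and -0.20 to 0.27 for averaged glutamate, and Slc1a2 from -0.15 to 0.0256 for averaged glutamate. The difference between glutamate effects ranged from -0.12 to 0.18 for Slc1a1, -0.00195 to 0.36 for Slc1a2 and, with no change of sign, 0.41 to 1.37 for Slc1a6. The log2 ratio of Slc1a3 to Slc1a2 ranged from -0.26 to -0.063. The Slc1a7 difference ranged from 0 to 0.204 normalized counts, 0 without TFBTBOA-Glut replicate 1. The causes were not tested.

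Counts of called genes moved more. Veh-Glut against Veh-Veh called 23 genes in limma, 39 at a minimum mean of 50, 36 in the single fit and 161 with DESeq2 (0 to 139 without each library). TFBTBOA-Veh against Veh-Veh called 147, and 23 with no filter (31 to 86). TFBTBOA-Glut against Veh-Glut called 311, 43 with no filter, 727 in the single fit and 860 with DESeq2 (62 to 441). TFBTBOA-Glut against TFBTBOA-Veh called 0, and 9 with no filter. The difference between glutamate effects called 2, 0 with no filter and 14 with the block. Averaged glutamate called 1, 0 with no filter and 7 with the block. A minimum mean of 50 removed Slc1a6, and count tests were not run where TFBTBOA-Veh enters. Counting error alone gives a coefficient of variation of 13% for Slc1a1 and 17.6% for Slc1a6, which limits their precision.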
